A study of Mus musculus with 8 samples.

Results

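The genes described here drive the cell division cycle. They are 41 genes in 2 groups: 19 of G1 entry and DNA replication, and 22 of G2 and mitosis. The members were taken by name. All probe sets whose annotation gives exactly 1 of these symbols were averaged per gene on the log2 scale, and 40 of the 41 members could be read in this way among 18193 genes in all (19 of 19 for replication and 21 of 22 for mitosis). Ccnb1, which encodes cyclin B1, is not analysed here, because no probe set in the annotation used carries its symbol.

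Liver mRNA was measured on Affymetrix mouse arrays, 1 array per animal, in 8 young adult male mice that had been housed singly for 10 days and were killed in the afternoon. The 4 control animals (numbers 70, 71, 80 and 82) were txnrd1 cond/+ albCre0. They carried 1 conditional-null and 1 wild-type allele of txnrd1, the gene of cytosolic thioredoxin reductase, and no Cre transgene. The other 4 animals (69, 72, 73 and 81) were txnrd1 cond/- albCre1. They carried 1 conditional-null and 1 null allele, and 1 copy of a Cre transgene under the albumin promoter, which is active in hepatocytes. Their hepatocytes are txnrd1-/-, whereas the other liver cells keep the conditional allele, so non-hepatocytes have a working copy in both groups of whole livers. These livers are called txnrd1-/- below, as in the study. The comparison asks whether division genes differ in abundance when hepatocytes lack thioredoxin reductase 1. Thioredoxin is a known electron donor of ribonucleotide reductase, which makes deoxyribonucleotides for DNA replication.

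Progression through the division cycle is driven by waves of transcription. In G1, cyclin D with Cdk4 and cyclin E with Cdk2 phosphorylate the pocket proteins and free the E2F factors, which raise the genes of origin licensing and of the replication fork. Later, in G2, the genes of the mitotic kinases, spindle and cytokinesis rise, commonly through CHR and CCAAT elements in their promoters. Most hepatocytes of an adult liver are quiescent and many are polyploid, and cyclin D1 is the cyclin best known for pulling them back into the cycle.

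The values are ratios. The ratios of a probe set mostly lie about 1 over the 8 arrays, so a log2 ratio of 0 is near its middle level. A difference of 1 unit is a 2-fold difference between animals. The centring is not exact: in 1 probe set of Cdk2 all 8 log2 ratios were below 0, from -0.31 to -0.13. How abundant one gene is against another cannot be read from these values. The array medians lay between 0.997 and 0.999, but the spread of log2 ratios over all probe sets ran from an SD of 0.194 in animal 69 to 0.350 in txnrd1-/- animal 72 and 0.384 in txnrd1cond/+ animal 82. The latter 2 arrays had the widest spread of the 8, and the members' counts past the test, medians and spreads are given below also without them. Of 3 probe sets of Txnrd1, the targeted gene, 2 had lower means in txnrd1-/- livers (log2 fold changes of -0.71 and -0.41) and the other a higher one (1.11), none past the test (adjusted p = 1.00 for each, limma), and since their places relative to the deleted part were not known here, they check no label. For the tissue, the means of 9 hepatocyte marker genes, among them albumin and transthyretin, stayed between -0.13 and 0.09 in all animals, although ratios do not show whether a marker is abundant.

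Promoter sequences show how the 2 groups of genes differ apart from any array value. RefSeq promoters (build GRCm38.p6, 250 bases before to 50 bases after the start of the gene) were found for 16 replication genes (18 promoters) and for 16 mitosis genes (17 promoters). Words of E2F sites (TTTCCCGC, TTTGGCGC, TTTGCCGC or TTTCGCGC, on either strand) were present in 9 of 18 replication promoters (50%), in 1 of 17 mitosis promoters (5.88%) and in 2.26% of all 32851 mouse promoters of the same length. Words of the CHR element (TTTGAA or TTCGAA, on either strand) were present in 15 of 17 mitosis promoters (88.2%), in 4 of 18 replication promoters (22.2%) and in 19.2% of all. CCAAT, on either strand, was in 14 of 17 mitosis promoters (82.4%), 13 of 18 replication promoters (72.2%) and 37.4% of all. A match is a run of letters and not a measured binding site.

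The following promoters belong to the members of largest spread between animals that hold these words, 2 of mitosis and 2 of replication. The promoter of Birc5, the member of largest spread of all, held none of these words and is not printed. No promoter was found for Mcm4, which had a larger spread than Mcm5. They are printed 5′ to 3′ along the strand of the gene, with the matched words in capitals. In the Ccnb2 promoter (chr9:70421505-70421804, minus strand), of cyclin B2, 3 CCAAT words begin at positions -87, -54 and -21, counted from the start of the gene, and CHR words begin at positions -167 and 5. The Mki67 promoter (chr7:135716330-135716629, minus strand), of the proliferation marker Ki-67, has CHR words at positions -116 and -98 and 3 CCAAT words, 1 of them on the other strand, upstream of these. The Cdc6 promoter (chr11:98907901-98908200, plus strand), of a loader of the replicative helicase, has 1 E2F word on the other strand at position -138. In the Mcm5 promoter (chr8:75109259-75109558, plus strand), of a helicase subunit, 2 E2F words on opposite strands overlap from position -153, and 3 CCAAT words follow.
Ccnb2: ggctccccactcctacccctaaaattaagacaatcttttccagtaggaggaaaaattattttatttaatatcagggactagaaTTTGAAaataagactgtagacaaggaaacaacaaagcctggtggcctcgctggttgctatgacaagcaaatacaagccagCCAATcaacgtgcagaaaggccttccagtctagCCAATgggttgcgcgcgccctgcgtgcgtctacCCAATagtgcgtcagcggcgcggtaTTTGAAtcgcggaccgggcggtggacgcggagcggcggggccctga
Mki67: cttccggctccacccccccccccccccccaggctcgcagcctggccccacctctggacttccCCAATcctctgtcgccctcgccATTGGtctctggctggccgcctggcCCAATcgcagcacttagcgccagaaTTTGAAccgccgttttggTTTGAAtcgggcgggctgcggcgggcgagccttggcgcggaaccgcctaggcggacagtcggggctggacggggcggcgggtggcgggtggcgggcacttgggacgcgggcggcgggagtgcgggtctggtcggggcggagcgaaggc
Cdc6: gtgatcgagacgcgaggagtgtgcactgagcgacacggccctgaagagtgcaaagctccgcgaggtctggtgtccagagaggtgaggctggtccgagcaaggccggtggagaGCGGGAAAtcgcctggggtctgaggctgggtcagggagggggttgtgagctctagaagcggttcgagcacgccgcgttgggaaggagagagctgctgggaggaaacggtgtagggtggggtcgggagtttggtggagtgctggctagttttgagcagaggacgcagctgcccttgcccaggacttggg
Mcm5: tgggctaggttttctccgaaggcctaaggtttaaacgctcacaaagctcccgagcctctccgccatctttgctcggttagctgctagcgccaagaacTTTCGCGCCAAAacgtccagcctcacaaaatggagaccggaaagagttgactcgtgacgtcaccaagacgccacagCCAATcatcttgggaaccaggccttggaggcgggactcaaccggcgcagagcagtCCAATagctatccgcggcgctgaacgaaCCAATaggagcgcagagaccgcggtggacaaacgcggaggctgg

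No member passed the test of genotype. Of 40 members, 0 reached an adjusted p of 0.05 with a 1.5-fold difference in either direction (limma, Benjamini-Hochberg over all genes), against 15 of 18193 genes, or 0.0824%. Without adjustment, 0 of 40 members reached p of 0.05 in limma (2.32% of all genes did). In an exact permutation test of each gene over the 70 ways to split the animals, 0 did so (1.71% of all genes). There only the smallest possible p, 0.029, lies below 0.05, and it needs groups that do not overlap. This count and the overlap given below are therefore the same result. The lowest unadjusted p of a member was 0.12 for Cdk2, the kinase partner of cyclin E, in limma. The values of the 2 genotypes overlapped for all 40 members, while 1.71% of all genes had groups that did not overlap, and the group means of 0 members were 1.5-fold apart (1.06% of all genes). At any of these shares fewer than 1 of 40 genes would be counted, so the counts of 0 do not set the members apart from other genes.

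**Figure D1:**
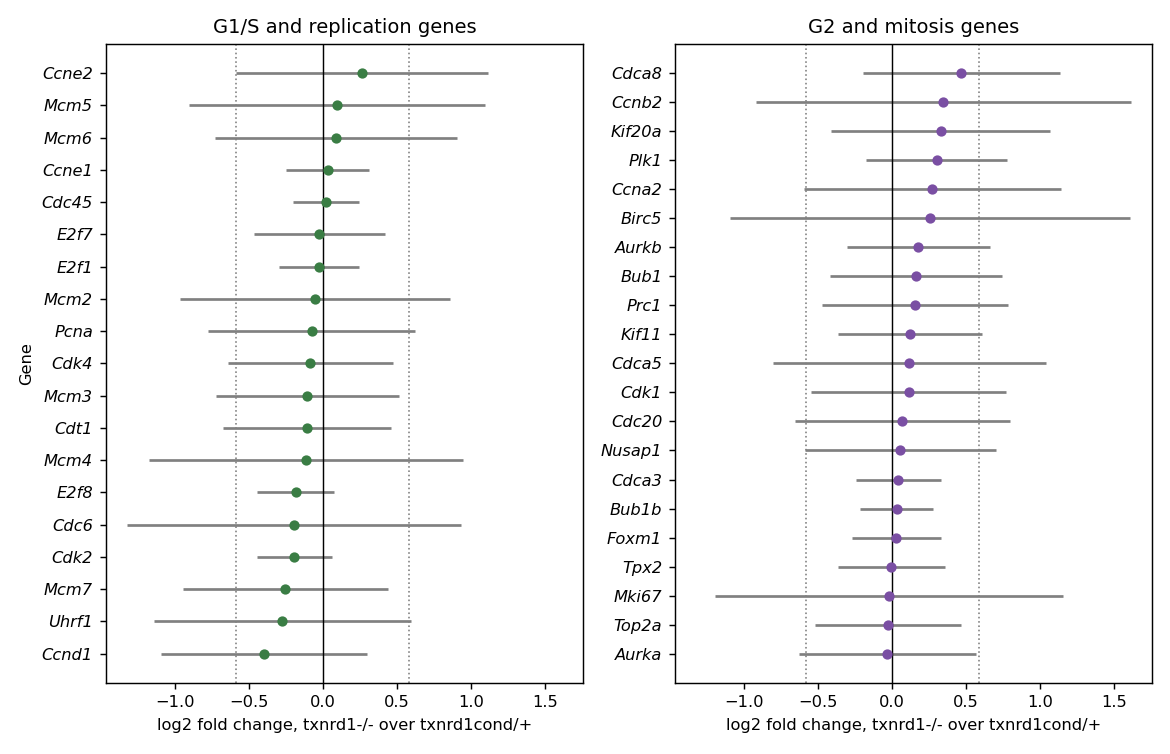
The log2 fold change of each member, txnrd1-/- over txnrd1cond/+ livers (points), with its 95% interval from limma (bars), for 19 replication and 21 mitosis genes; dotted lines mark 1.5-fold. All intervals include 0, and the points run from -0.40 for Ccnd1 to 0.47 for Cdca8.

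The 2 groups of genes sat to opposite sides of 0 by small amounts. The median log2 fold change, txnrd1-/- over txnrd1cond/+, was -0.08 for the replication genes, with 14 of 19 below 0, and 0.12 for the mitosis genes, with 17 of 21 above 0, beside a median of 0.00 and 51.1% above 0 over all genes. These medians were smaller than the differences between animals. The absolute log2 fold change was below the pooled SD within groups for 38 of 40 members. The direction also rested on single animals: without txnrd1cond/+ animal 80, only 3 of 19 replication genes were below 0 and their median was 0.08, and without txnrd1-/- animal 73, 7 of 21 mitosis genes were above 0 and their median was -0.03. Without animal 82 the medians were -0.32 and -0.01, without animal 72 they were 0.03 and 0.39, and without both of these they were -0.20 and 0.20.

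The precision set by 4 animals a group was coarse for most members. The 95% interval of the log2 fold change of the gene mean lay within 1.5-fold on both sides for 11 of 40 members. Among them were Foxm1, Bub1b, Cdca3, Ccne1, E2f1, Cdc45 and Top2a. Single probe sets could be less precise. The standard error was 0.13 for Cdca3 and 0.22 for Top2a as gene means, but 0.41 and 0.60 for 1 probe set of each. The interval of the gene mean reached beyond 2-fold on at least 1 side for 13 members. For Birc5 it ran from -1.10 to 1.61 and for Cdc6 from -1.32 to 0.94, so a 2-fold difference lay within the interval in both directions for Birc5 and as a fall for Cdc6, and could not be detected here. In bulk RNA of this kind, fewer dividing cells and less of an mRNA per cell cannot be told apart.

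The larger differences were between animals, within each genotype. The SD of the log2 ratio over the 8 animals had a median of 0.50 for replication genes and 0.45 for mitosis genes, against 0.20 for all genes. It lay at or above the 90th percentile of all genes, an SD of 0.37, for 13 of 19 replication and 13 of 21 mitosis genes. The widest was that of Birc5, whose highest and lowest animals stood 6.72-fold apart, followed by Ccnb2 at 6.58-fold. Much of this spread came from 2 animals. Without 72 and 82 the median SD over the other 6 animals was 0.30 for replication and 0.20 for mitosis genes, against 0.16 for all genes, and 9 of 19 replication but only 1 of 21 mitosis genes lay at or above the 90th percentile, an SD of 0.33. Birc5, Ccnb2 and Mki67 then ranged 1.79-fold, 2.20-fold and 1.67-fold, and Cdc6 had the widest range, 4.22-fold. With all 8 animals, 8 members had a gene mean that varied less than the median gene: Ccne1, Cdk2, E2f1, E2f8 and Cdc45 among replication genes and Foxm1, Cdca3 and Bub1b among mitosis genes. A narrow gene mean did not always have narrow probe sets: 1 of the 3 probe sets of Cdca3 had an SD of 0.68, with -1.50 in animal 72 and -0.82 in animal 82, and 1 of the 4 of Foxm1 had an SD of 0.43. For narrow probe sets, ratios do not show whether the mRNA was steady or the signal near background.

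**Figure D2:**
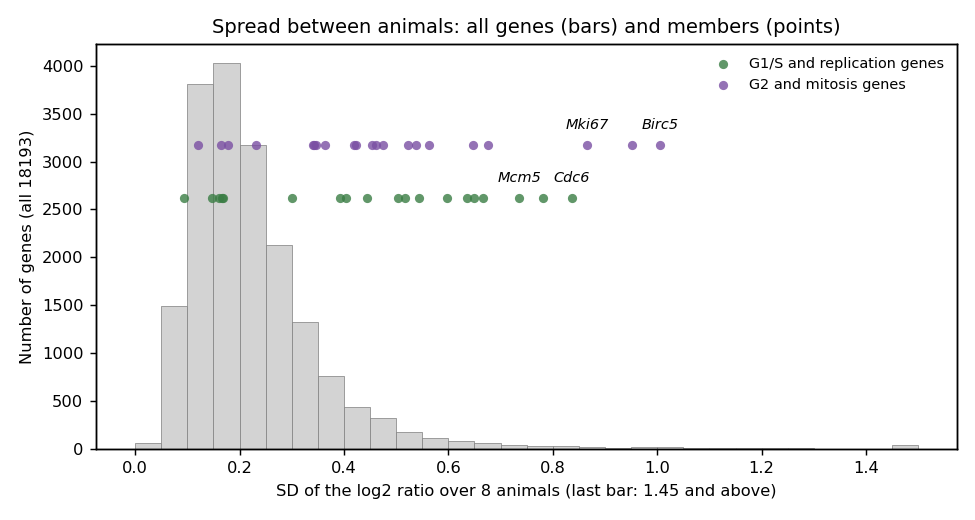
Histogram of the SD of the log2 ratio over 8 animals for all 18193 genes (grey bars, left axis) with each replication gene (green points) and mitosis gene (purple points) placed at its own SD; the height of the points has no scale. Most members lie to the right of the bulk of genes, up to the widest, Birc5.

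Averaged over the group, the replication genes stood at mean log2 ratios of 0.11, -0.04, 0.52 and -0.74 in txnrd1cond/+ animals 70, 71, 80 and 82, and of 0.07, -0.49, 0.17 and -0.23 in txnrd1-/- animals 69, 72, 73 and 81. The mitosis genes stood at -0.07, -0.03, 0.06 and -0.75 in the same 4 controls, and at 0.15, -0.84, 0.39 and 0.07 in the 4 txnrd1-/- animals. As means of animals these were -0.04 ± 0.53 and -0.12 ± 0.30 for replication and -0.20 ± 0.37 and -0.06 ± 0.54 for mitosis (SD, n = 4 animals each, txnrd1cond/+ first), whereas the means over all genes lay between -0.03 and 0.03 in every animal. One animal of each genotype was thus low in both groups of genes: animal 82 among the controls and animal 72 among the txnrd1-/- livers. Another of each was high, but in different genes, animal 80 for replication and animal 73 for mitosis.

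**Figure D3:**
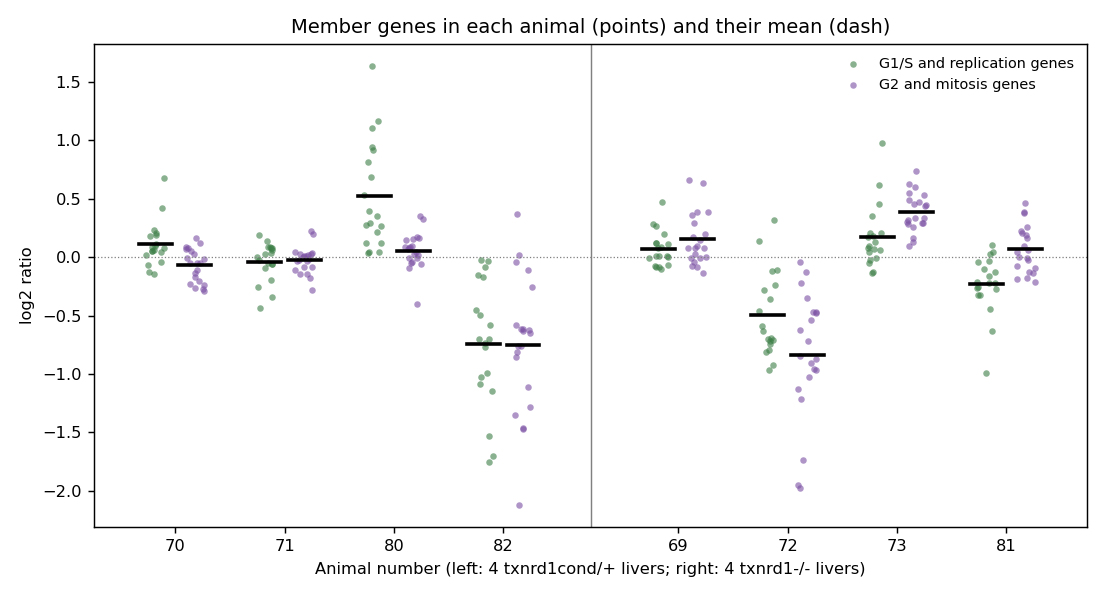
The log2 ratio of each replication gene (green) and mitosis gene (purple) in each of 8 animals, with the mean of the group as a black dash; txnrd1cond/+ animals stand left of the line and txnrd1-/- animals right. Animals 82 and 72 are low in both groups of genes, animal 80 is high for replication genes (mean 0.52) and animal 73 for mitosis genes (mean 0.39).

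Animals 72 and 82 were the 2 lowest of the 8 for 11 of 19 replication genes and for 16 of 21 mitosis genes, 27 of 40 in all, whereas this pair was lowest for 12.4% of all genes. The mitosis genes outside this pattern were Foxm1, Cdca3, Cdc20, Bub1b and Tpx2, of which all but Bub1b had at least 1 probe set with this pair lowest. For Foxm1 the margin was narrow, with -0.038 in animal 72 and -0.035 in control animal 71. Animal 80 was the highest of the 8 for 14 of 19 replication genes and 2 of 21 mitosis genes (15.6% of all genes), and animal 73 for 14 of 21 mitosis genes and 0 of 19 replication genes (8.31% of all genes). The order of animals thus differed between the 2 groups of genes at the top and was shared at the bottom. These are counts over genes of the same 8 livers, with no test. The arrays of 72 and 82 also had the widest spread over all probe sets, as given above, and the part of this in the members' low values was not tested.

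**Figure D4:**
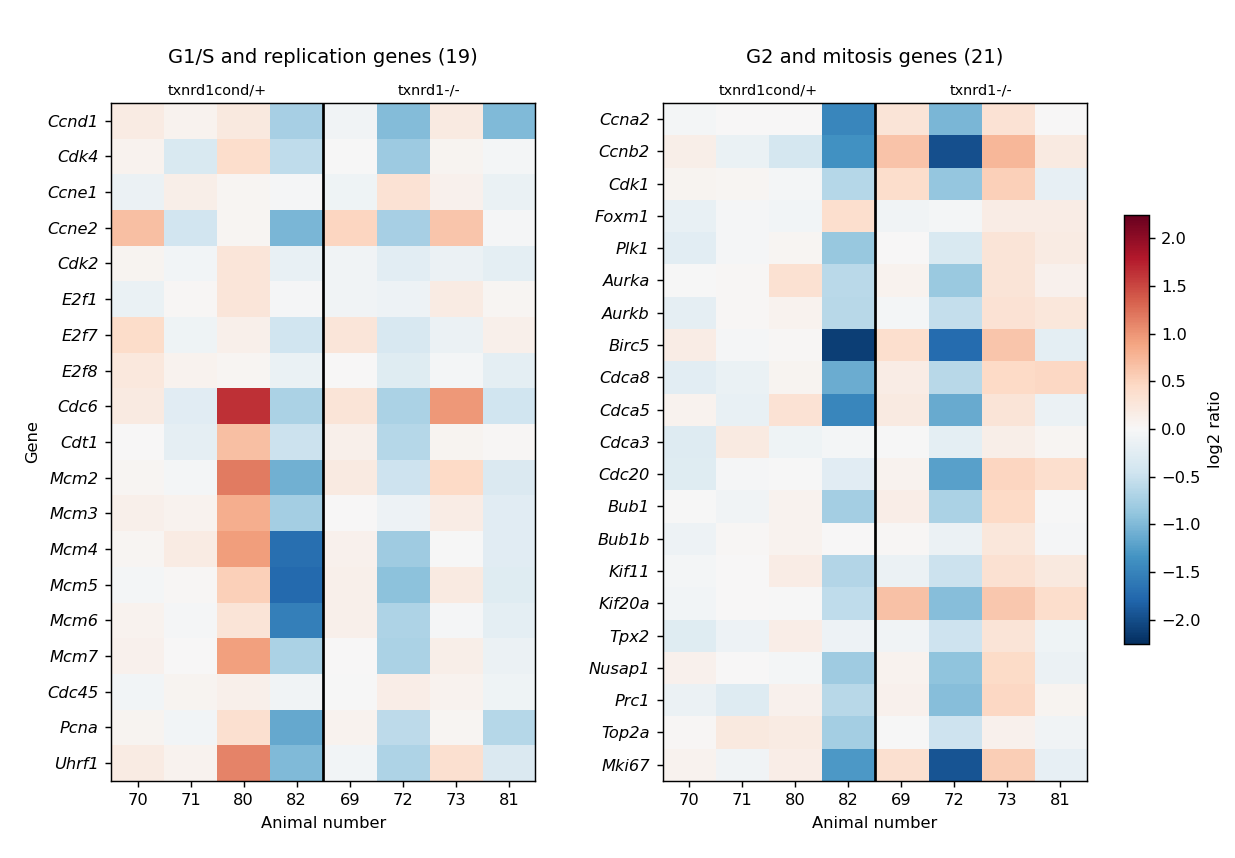
Log2 ratios of 19 replication genes (left) and 21 mitosis genes (right) in each of 8 animals; red is above and blue below the middle level of the gene, and the black line parts the genotypes. Columns 82 and 72 are blue for most genes, column 80 is red for Cdc6 and Mcm genes, and column 73 is pale red for mitosis genes.

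G1 entry was represented by Ccnd1, Cdk4, Ccne1, Ccne2 and Cdk2. Ccnd1, which encodes cyclin D1, stood at 0.19, 0.09, 0.22 and -0.74 in txnrd1cond/+ animals 70, 71, 80 and 82 and at -0.08, -0.97, 0.20 and -0.99 in txnrd1-/- animals 69, 72, 73 and 81 (log2 ratios, in this order of animals throughout). It was low in 1 of 4 controls and in 2 of 4 txnrd1-/- livers, and animal 81 joined the low animals for this gene. Its log2 fold change of -0.40 (standard error 0.31, adjusted p = 1.00, limma) was the most negative of all members.

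Ccne2, 1 of the genes for cyclin E, stood at 0.68, -0.44, 0.05 and -1.02 in controls and at 0.48, -0.74, 0.62 and -0.04 in txnrd1-/- livers. Its log2 fold change of 0.26 (standard error 0.38) was the most positive among replication genes, with animals of both genotypes at both ends of the range. As gene means, Ccne1, the other gene for cyclin E, ran from -0.16 to 0.32, and Cdk2 from -0.24 to 0.27. Their probe sets differed. For Cdk2, 1 probe set ran from -0.21 to 0.70 and the other had an SD of 0.06. For Ccne1, 1 probe set ran from -0.31 to 0.66 and the other from -0.23 to 0.24. Cdk4, the partner of cyclin D, was lowest in animals 72 (-0.81) and 82 (-0.58). Of the E2F factors, the activator E2f1 and the repressors E2f7 and E2f8 had log2 fold changes of -0.03, -0.02 and -0.19, and their SD over animals was between 0.15 and 0.30.

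Origins of replication are licensed by Cdc6 and Cdt1, which load the Mcm2 to Mcm7 helicase on DNA. Cdc6, whose promoter with its E2F word is printed above, stood at 0.21, -0.25, 1.64 and -0.70 in controls and at 0.28, -0.71, 0.98 and -0.44 in txnrd1-/- livers. The highest and the lowest animal differed 5.08-fold, animals 80 and 73 were the high ones, and the genotypes differed by a log2 fold change of -0.19 (standard error 0.50). Cdt1 followed the same animals at the ends, with 0.68 in animal 80 and -0.63 in animal 72.

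All 6 Mcm genes were highest in animal 80, and 5 of them (all but Mcm3) had 72 and 82 as their lowest pair. Their mean log2 ratio was 0.06, 0.04, 0.78 and -1.26 in the controls and 0.09, -0.62, 0.16 and -0.24 in the txnrd1-/- livers, so that both extremes were control animals. Mcm2 stood at 0.04, -0.05, 1.17 and -1.08 in controls and at 0.20, -0.46, 0.45 and -0.32 in txnrd1-/- livers. Mcm4 stood at 0.05, 0.19, 0.95 and -1.70, and at 0.09, -0.79, -0.01 and -0.25. Control animals 80 and 82 were thus 6.28-fold apart in Mcm4, the widest range among replication genes, with a log2 fold change between genotypes of -0.11 (standard error 0.47).

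Mcm5, with its overlapping E2F words, stood at -0.05, 0.03, 0.53 and -1.75 in controls and at 0.12, -0.92, 0.21 and -0.27 in txnrd1-/- livers. Mcm6 stood at 0.08, -0.02, 0.29 and -1.53, and at 0.12, -0.70, -0.02 and -0.22. Mcm7 stood at 0.10, 0.00, 0.92 and -0.70, and at 0.01, -0.71, 0.13 and -0.12. The genotypes overlapped in each, with log2 fold changes of 0.09, 0.09 and -0.25. Mcm3 had the narrowest range of the 6, from -0.77 to 0.81.

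Pcna encodes the sliding clamp of the replication fork. It stood at 0.06, -0.06, 0.36 and -1.15 in controls and at 0.08, -0.59, 0.05 and -0.63 in txnrd1-/- livers, with animal 81 near animal 72 at the low end, and a log2 fold change of -0.08 (standard error 0.31). Uhrf1, which brings the maintenance DNA methyltransferase to newly replicated DNA, stood at 0.18, 0.08, 1.11 and -0.995 in controls and at -0.06, -0.69, 0.35 and -0.32 in txnrd1-/- livers. Animal 80 was again the highest, and the log2 fold change was -0.27 (standard error 0.39). Cdc45, which joins the helicase at firing origins, was the flattest member as a gene mean, within -0.10 and 0.14. Its 2 probe sets differed in animal 72, at -0.24 and 0.52. The former had 72 and 82 (-0.12) as its lowest pair, and the latter was lowest in animal 81 (-0.19).

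Entry into mitosis is driven by Cdk1 with cyclins A and B. Ccnb2, whose promoter heads the sequences above, stood at 0.12, -0.15, -0.40 and -1.35 in controls and at 0.64, -1.98, 0.74 and 0.21 in txnrd1-/- livers. Of the txnrd1-/- animals, 3 of 4 were above every control and animal 72 was below every control. The log2 fold change was 0.34 (standard error 0.57) with all animals, and 0.67 (standard error 0.18, adjusted p = 1.00, limma) without animals 72 and 82.

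Cdk1 itself stood at 0.05, 0.04, -0.04 and -0.63 in controls and at 0.39, -0.88, 0.53 and -0.18 in txnrd1-/- livers, a log2 fold change of 0.11 (standard error 0.29). Ccna2, the gene of cyclin A2, was lowest in animals 82 (-1.46) and 72 (-1.02) and between -0.05 and 0.33 in the other 6. Foxm1, a transcription factor that drives many G2 genes, did not share their order as a gene mean. It stood at -0.17, -0.03, -0.06 and 0.37 in controls and at -0.08, -0.04, 0.17 and 0.17 in txnrd1-/- livers, with animal 82, the lowest for many mitosis genes, as the highest. Its probe sets disagreed, as given below. The probe set that was low in animal 82 (-0.40) had 72 (-0.04) as the next lowest and 73 (0.39) as the highest.

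Among the mitotic kinases, Aurka stood at -0.02, 0.03, 0.35 and -0.61 in controls and at 0.07, -0.84, 0.29 and 0.09 in txnrd1-/- livers. Its log2 fold change of -0.03 (standard error 0.27) was the lowest among mitosis genes. Aurkb and Plk1 had log2 fold changes of 0.18 and 0.30, and both were lowest in animals 82 and 72 and highest in animal 73.

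Aurora B works in the chromosomal passenger complex with survivin and borealin. Birc5, which encodes survivin, stood at 0.17, -0.03, 0.03 and -2.12 in controls and at 0.38, -1.73, 0.63 and -0.21 in txnrd1-/- livers. Animals 82 and 72 were more than 2-fold below all others, whatever their genotype, and the log2 fold change was 0.25 (standard error 0.60), with -0.29 without animal 82, 0.75 without animal 72 and 0.21 without both. Cdca8, which encodes borealin, stood at -0.23, -0.14, 0.07 and -1.11 in controls and at 0.17, -0.63, 0.45 and 0.46 in txnrd1-/- livers. Its log2 fold change of 0.47 (standard error 0.30, adjusted p = 1.00, limma) was the largest among all members.

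Cdca5, the gene of sororin, which holds sister chromatids together, stood at 0.08, -0.18, 0.33 and -1.47 in controls and at 0.20, -1.13, 0.29 and -0.13 in txnrd1-/- livers. It was low in the same 2 animals, and its log2 fold change was 0.12 (standard error 0.41). Kif20a, a kinesin of the central spindle and cytokinesis, stood at -0.05, 0.01, -0.01 and -0.58 in controls and at 0.66, -0.97, 0.60 and 0.39 in txnrd1-/- livers. As with Ccnb2, 3 of 4 txnrd1-/- animals were above every control and animal 72 was below every control. The log2 fold change of Kif20a was 0.33 (standard error 0.33), and 0.57 without animals 72 and 82 (standard error 0.11, adjusted p = 0.42, limma).

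Of chromosome structure genes, Top2a, the DNA topoisomerase of dividing cells, stood at 0.03, 0.22, 0.18 and -0.76 in controls and at -0.01, -0.47, 0.10 and -0.07 in txnrd1-/- livers, a log2 fold change of -0.03 (standard error 0.22). Mki67, with its 2 CHR words, stood at 0.07, -0.08, 0.15 and -1.29 in controls and at 0.36, -1.95, 0.54 and -0.19 in txnrd1-/- livers. Its lowest and highest animal, 72 and 73, were both txnrd1-/- and differed 5.63-fold, and the genotypes differed by a log2 fold change of -0.02 (standard error 0.53). Without animal 82, without animal 72 and without both, this value was -0.36, 0.52 and 0.19.

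The remaining mitosis genes had log2 fold changes between -0.01 and 0.16. Bub1, a checkpoint kinase, Nusap1 and Prc1, which bundle spindle microtubules, and Kif11, the motor that pushes spindle poles apart, all had 72 and 82 as their lowest pair and animal 73 as their highest. Cdc20, the activator of the anaphase-promoting complex, had a gene mean that was low in animal 72 (-1.22) and at -0.25 in animal 82, where its 3 probe sets stood at -0.91, -0.24 and 0.38. The checkpoint gene Bub1b and the cell cycle gene Cdca3 ranged over no more than 0.49 on the log2 scale, and Tpx2, an activator of Aurora A, over 0.76, as means of probe sets that differed in animals 72 and 82 for Cdca3 and Tpx2.

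Leaving out an array changed how many members reached an unadjusted p of 0.05, though none reached an adjusted one in any fit. Without both animals 72 and 82, an alternative chosen after seeing the data for the wide spread of their arrays, 4 members did: Ccnb2, Cdca8, Cdc20 and Kif20a, all higher in txnrd1-/- livers, in a fit where 4.14% of all genes did. The log2 fold changes of the 40 members ran from -0.47 (Uhrf1) to 0.67 (Ccnb2) in that fit. Without animal 72 alone the same 4 genes and Prc1 did, 5 of 40, against 3.96% of all genes, and all 21 mitosis genes were above 0. Without animal 82 alone, Cdk2 and Mcm4 did, both lower, against 3.05% of all genes. The lowest adjusted p of any member in these 3 fits was 0.42, for Kif20a without both animals. Leaving out the lowest liver of 1 genotype moves the mean of that genotype up for most of these genes.

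The probe sets behind a gene often differed. The 40 genes were read by 91 probe sets, 10 genes by 1 and 30 by several. In 17 of these 30 the SD over animals of the widest probe set was more than 2 times that of the narrowest. For Top2a, 1 probe set had an SD of 0.99, with -1.84 in animal 82 and -2.04 in animal 72, while the other 2 had SDs of 0.21 and 0.28. For Nusap1 the SDs were 0.91 and 0.10, for Bub1 0.81 and 0.10, and for Aurka 0.80 and 0.11. For Mcm5, 1 probe set fell to -3.45 in animal 82, whereas the narrowest probe set of the gene stood at -0.15 there. A gene mean over such probe sets stands between values that differ from each other.

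With the most variable probe set of each gene, 72 and 82 were the lowest pair for 32 of 40 members. The share of all genes under this rule was not counted, and the 12.4% given above is for gene means. The count therefore does not set the members apart from other genes. The 4 probe sets of Foxm1 disagreed in animal 82, with 1.06 and 0.77 in 2, 0.05 in another and -0.40 in the last, so the order of animals for Foxm1 depends on the probe set. Of the 91 probe sets, 1 reached an unadjusted p of 0.05 in limma, beside 1.82% of all probe sets. It read Cdca8 and stood at -0.52, -0.39, 0.00 and -0.51 in controls and at 0.47, 0.00, 0.93 and 0.80 in txnrd1-/- livers, a log2 fold change of 0.90 (standard error 0.21, adjusted p = 1.00 over all probe sets, limma). The other 2 probe sets of Cdca8 had log2 fold changes of 0.22 and 0.28.

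Wider lists of genes of the same processes had the same low animals. Among 41 other replication genes (such as those of the origin recognition complex, the GINS complex and the DNA polymerases), 72 and 82 were the lowest pair for 18, and among 46 other mitosis genes (kinetochore, condensin and cytokinesis genes) for 36, again beside 12.4% of all genes. Animal 73 was the highest for 25 of the 46 and animal 80 for 19 of the 41. Of these 87 genes 0 passed the adjusted test of genotype. The median log2 fold change was 0.01 for the replication and 0.11 for the mitosis list. Without adjustment 1 of 87 passed (2.32% of all genes), Cdc7, an origin-firing kinase that was named after its values were seen, with a log2 fold change of -0.31 (standard error 0.11, adjusted p = 1.00, limma).

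Supply of deoxyribonucleotides was measured by 9 genes, with a median log2 fold change of -0.03 and 0 of 9 called. The mean log2 ratio of this list was lowest in animals 82 (-0.42) and 72 (-0.30) and ran from -0.08 to 0.17 in the others. Gene by gene, 72 and 82 were the lowest pair for 4 of 9 (12.4% of all genes). Rrm2, the S-phase subunit of ribonucleotide reductase, stood at -0.08, -0.05, 0.05 and -1.51 in controls and at 0.09, -0.89, 0.47 and 0.14 in txnrd1-/- livers. It had the order of the mitosis genes, with 72 and 82 lowest and 73 highest, and its log2 fold change was 0.35 (standard error 0.38). Of 20 brakes of the cycle (inhibitors of cyclin-dependent kinases, pocket proteins and repressor complexes) 0 were called and the median was -0.03. Cdkn1a, which encodes the kinase inhibitor p21, stood at 0.39, -0.13, 0.71 and -0.06 in controls and at -0.09, -0.17, -0.09 and 0.08 in txnrd1-/- livers. It was highest in control animals 80 and 70, and its log2 fold change was -0.30 (standard error 0.18). Of 13 targets of p53, 0 were called, and 1 reached an unadjusted p of 0.05 (2.32% of all genes), Bbc3, which encodes a pro-apoptotic protein and was named after its values were seen, with a log2 fold change of 0.38 (standard error 0.16, adjusted p = 1.00, limma).

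Markers of other liver cells were set beside the animals' order, since these cells can divide in the adult liver too. The mean log2 ratio of 8 endothelial markers was lowest in animals 72 (-0.37) and 82 (-0.31) and ran from -0.10 to 0.41 in the other 6. That of 8 Kupffer cell markers was also lowest in 82 (-0.34) and 72 (-0.33), against -0.12 to 0.31 in the others. All 8 endothelial and all 8 Kupffer cell genes were below 0 in animal 72, and 7 and 6 of them in animal 82. Over all 18193 genes, 9470 were below 0 in animal 72 and 9208 in animal 82. Gene by gene, 72 and 82 were the lowest pair for 3 of 8 endothelial and 4 of 8 Kupffer cell genes (12.4% of all genes). Animal 73, the highest for mitosis genes, stood at -0.09 and -0.12 for these lists. Stellate cell markers (8 genes) were low in animals 82 (-0.35), 81 (-0.28) and 72 (-0.19). The part of these cells in the members' values was not tested.

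Lists of cells from blood and bile ducts did not have 72 and 82 as the lowest animals. Neutrophil markers (8 genes) were lowest in animals 81 (-0.64) and 82 (-0.50) and highest in animal 70 (0.72). Lymphocyte markers (6 of 8 genes measured) ran from -0.12 to 0.12, erythroid markers (5 of 9) from -0.28 to 0.14 and cholangiocyte markers (5 of 6) from -0.20 to 0.12. For the erythroid list 72 was the lowest animal and 82 was not among the 4 lowest. Between genotypes, 0 of the genes of these 8 marker lists were called. Without adjustment 1 of these genes passed, beside 2.32% of all genes. It was Prtn3, a neutrophil granule protease that was named after its values were seen, with a log2 fold change of -1.20 (standard error 0.33, adjusted p = 1.00, limma).

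**Figure D5:**
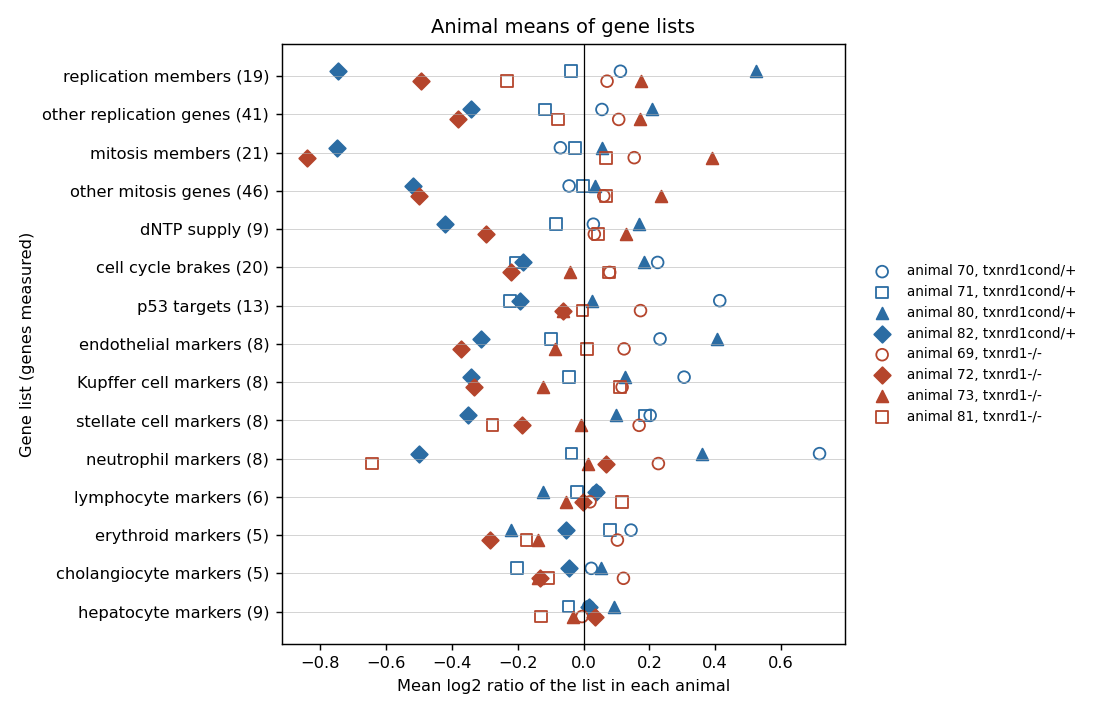
Mean log2 ratio of each gene list (rows, with the number of genes measured) in each of 8 animals; blue symbols are txnrd1cond/+ and red symbols txnrd1-/- animals, with filled diamonds for animals 82 and 72 and filled triangles for animals 80 and 73. Both diamonds lie at the low end for the 4 lists of division genes, for deoxyribonucleotide supply and for endothelial and Kupffer cell markers. Hepatocyte markers stay within -0.13 and 0.09.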

How the data were processed

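Total RNA of 8 livers, 4 per genotype and 1 array per animal, was hybridized to Affymetrix whole-genome mouse arrays by the authors. The deposited values are linear ratios, RMA-processed per the submitters' processing notes and analysed in GeneSpring per the study's methods. Rows centre on about 1 over the 8 arrays, though not all do, as given above for Cdk2. Raw signal was not used here, so the study's signal filter could not be applied and the depth over background is unknown. The number of animals limits precision.

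Of 45101 probe sets, 64 controls were left out, and of the other 45037, 34945 carried 1 gene symbol, 932 several and 9160 none. Log2 ratios were averaged per symbol (18193 genes, 5 empty values) and fitted with limma 3.58.1 (lmFit, eBayes, 2-sided) in R 4.3.3, with Benjamini-Hochberg adjustment over all genes, and a call needed an adjusted p of 0.05 and 1.5-fold, the fold threshold of the study, which names no test. The fit was tested on simulated data. Exact permutation tests were 2-sided. Groups came from the sample titles.

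Values in each animal are given for the 3 largest rises and falls and the 4 widest SDs of each group, for members past a threshold, and for Ccnd1, Pcna, Mcm2, Mki67, Top2a, Foxm1 and Cdk1 (the rule also held Ccnb1, which was not measured), plus Cdkn1a and Rrm2. The members and the gene lists were chosen with earlier results of these data known. Alternatives were other scalings, fits, probe set rules and filters, animal numbers 69 to 73 against 80 to 82 as a block, and leaving out animals. Promoters are RefSeq's. Summaries were computed with Python 3.11.15 and pandas 2.3.3, and figures with matplotlib 3.10.9.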

Additional observations from a re-analysis of the deposited data

Results flagged for a closer look

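Within each genotype, the value of 1 animal stood apart from the other 3 (by Dixon's test of the gap to its nearest neighbour against the whole range) in 11 of 84 tested sets of 4 values, over 40 genes and the 2 group means, where chance would give about 4.2 at 1 in 20. The sets share animals and move together, so they are not 84 independent looks. The rule was not run on the other genes, so this count does not set the members apart from them. The arrays of animals 82 and 72 also had the widest spread over all probe sets. In the controls it was the low value of animal 82 in 8 sets: Ccnd1 (-0.738), Ccna2 (-1.460), Cdk1 (-0.635), Birc5 (-2.120), Kif20a (-0.578), Nusap1 (-0.808), Mki67 (-1.286) and the mean of the mitosis genes (-0.748). In the txnrd1-/- livers it was the low value of animal 72 in 3 sets: Cdk4 (-0.809), Cdt1 (-0.634) and Kif20a (-0.966). All are log2 ratios. Kif20a was the gene in which both genotypes had such an animal.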

How the results depend on the processing

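The count of members called after adjustment was 0 under every alternative tried, while the genes called over all genes ranged from 0 (exact permutation test) to 41 (genes with an SD above the median only). The permutation test could call no gene after adjustment, because its smallest possible p is 0.029, so its count of 0 carries no information. The count of members at an unadjusted p of 0.05 was 0 as reported. It was 2 with robust regression (Cdc20 and Kif20a, beside 5.60% of all genes), 2 with array weights (Cdca8 and Kif20a, beside 3.44%), 1 without _x_at and _s_at probe sets (Cdca8, beside 2.29%), 1 with probe sets in place of genes, 4 without both animals 72 and 82, and from 0 to 5 when 1 animal was left out, and 0 under the other alternatives. The medians of the replication and mitosis genes moved by less than their SD between animals (0.39 and 0.43), but their sign turned when single animals were left out, as given above. Within animals 69 to 73 they were -0.15 and -0.03, and within 80 to 82 (1 txnrd1-/- liver) -0.16 and 0.37. No paired analysis was possible because the 2 genotypes share no animal number. Ratios carry no signal over background, so which members were near it was not analysed here.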
